A study of Mus musculus with 4 samples.

Results

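Cyclin-dependent kinase inhibitors and genes of the p53 response were examined in urethane-induced mouse lung tumors and in non-tumor lung. The 10 genes were chosen by name: Cdkn2a, Cdkn2b, Cdkn2c, Cdkn1a, Cdkn1b, Trp53, Mdm2, Ccng1, Plk2 and Gdf15. A probe belonged to the set when the transcript accession it carries is one of these genes in RefSeq, which gave 10 of 32300 genes or transcripts and 14 of the 41174 non-control probes of the array. Of the 10 genes, 4 had 2 probes (Cdkn1b, Trp53, Mdm2 and Ccng1) and 6 had 1. Of the 14 probes, 5 were printed as 10 spots each and 9 as 1 spot, so that 59 spots were read on each array.

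The series holds 4 arrays, 1 for each combination of genotype (Nrf2+/+ or Nrf2-/-) and tissue (non-tumor lung or tumor). All mice were female, of the ICR strain and 6 months old, and all had received an intraperitoneal injection of urethane, a lung carcinogen, at 1 g/kg body weight 16 weeks earlier. There was no lung of mice that did not receive urethane. Each array carried RNA pooled from 8 mice, and the tumors were between 1.0 and 1.5 mm in diameter and freed from surrounding tissue under a microscope. Nrf2, encoded by Nfe2l2, is the transcription factor that switches on antioxidant and detoxification genes. The labels do not describe how the Nrf2-/- allele was made, nor whether a mouse that gave tumors also gave non-tumor lung.

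The products of these genes act as brakes on the cell cycle or report on the activity of p53. The INK4 inhibitors (Cdkn2a, Cdkn2b, Cdkn2c) bind the kinases Cdk4 and Cdk6 and keep the retinoblastoma protein active, and the CIP/KIP inhibitors (Cdkn1a, Cdkn1b) bind cyclin-kinase complexes more broadly. Cdkn2a also encodes Arf from an upstream first exon in another reading frame; Arf holds back Mdm2, the ubiquitin ligase that degrades p53, and p53 in turn activates Mdm2, Cdkn1a, Ccng1, Plk2 and Gdf15 among many targets. The Cdkn2a locus is known as a barrier to lung tumors in mice.

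To show where the p53 and Nrf2 motifs of these genes lie, promoter windows of 300 bases (250 before the transcription start and 50 after it) were read from RefSeq on GRCm38.p6. All 10 genes matched, with 14 windows, since 4 genes have 2 starts. The windows of the 3 p53 target genes that held a match to the p53 motif, and both windows of Cdkn2a, whose difference between arrays was the largest among the members, are printed with matches to the p53 and Nrf2 motifs in capitals; GC boxes, counted below, are left in lower case.
Cdkn1a, upstream of its 2 starts, chr17:29090729-29091028, plus strand, 2 p53 half-sites that begin 73 and 51 bases before the start: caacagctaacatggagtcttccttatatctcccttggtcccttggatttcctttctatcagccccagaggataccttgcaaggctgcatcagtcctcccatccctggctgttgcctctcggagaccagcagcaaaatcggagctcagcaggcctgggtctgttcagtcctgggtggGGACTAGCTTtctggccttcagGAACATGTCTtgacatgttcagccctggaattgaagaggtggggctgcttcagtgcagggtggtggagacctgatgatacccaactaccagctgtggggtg
Ccng1, chr11:40755237-40755536, minus strand, a p53 half-site that begins 185 bases before the start: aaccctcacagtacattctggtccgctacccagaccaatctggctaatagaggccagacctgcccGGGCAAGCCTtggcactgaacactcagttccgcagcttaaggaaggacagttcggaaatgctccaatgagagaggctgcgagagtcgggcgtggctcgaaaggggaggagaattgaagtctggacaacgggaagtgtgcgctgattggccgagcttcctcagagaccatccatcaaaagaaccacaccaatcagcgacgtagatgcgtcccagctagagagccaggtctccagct
Mdm2, chr10:117710709-117711008, minus strand, a p53 half-site that begins 186 bases before the start: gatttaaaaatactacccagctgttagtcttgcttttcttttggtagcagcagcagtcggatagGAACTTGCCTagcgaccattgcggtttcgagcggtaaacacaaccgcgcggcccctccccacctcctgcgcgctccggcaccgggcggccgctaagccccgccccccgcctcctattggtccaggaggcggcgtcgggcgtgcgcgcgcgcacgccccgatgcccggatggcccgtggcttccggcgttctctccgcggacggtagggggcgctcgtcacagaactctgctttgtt
Cdkn2a, upstream start, chr4:89294570-89294869, minus strand, no p53 or Nrf2 motif: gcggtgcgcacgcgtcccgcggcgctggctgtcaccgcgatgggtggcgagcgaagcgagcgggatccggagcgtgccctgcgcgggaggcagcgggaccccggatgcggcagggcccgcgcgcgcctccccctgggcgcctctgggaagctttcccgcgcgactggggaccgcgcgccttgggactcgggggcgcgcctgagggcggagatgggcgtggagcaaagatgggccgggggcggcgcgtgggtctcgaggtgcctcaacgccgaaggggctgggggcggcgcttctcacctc
Cdkn2a, downstream start, chr4:89282143-89282442, minus strand, a core of the antioxidant response element that begins 70 bases before the start: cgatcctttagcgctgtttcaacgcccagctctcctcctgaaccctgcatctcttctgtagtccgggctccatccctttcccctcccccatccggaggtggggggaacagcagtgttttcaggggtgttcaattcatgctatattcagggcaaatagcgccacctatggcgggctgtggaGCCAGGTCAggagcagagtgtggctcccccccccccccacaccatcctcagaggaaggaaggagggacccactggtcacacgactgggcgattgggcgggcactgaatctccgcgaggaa

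A p53 half-site is the consensus decamer of p53, searched by name and palindromic, and the core of the antioxidant response element, the sequence that Nrf2 binds with a small Maf protein, was searched as TGACNNNGC on both strands. The half-site was present in 4 of the 14 windows (Ccng1, Cdkn1a, Mdm2 and Trp53) and in 8.36% of all 32851 promoter windows of the table. The antioxidant core was present in 4 of the 14 (Cdkn1a, Cdkn1b, Cdkn2a and Trp53) and in 12.4% of all windows. A TGACTCA site of AP-1, which can overlap the antioxidant core, was in 0 of 14 and in 5.20% of all. E2F sites spelled TTTCGCGC or TTTGGCGC were in 0 of 14 and in 0.813% of all. GGGCGG, the GC box, was in 8 of 14 and in 35.7% of all. The upstream window of Cdkn2a held 45 CpG dinucleotides and the downstream window 12, against a median of 7 over all windows. A match is a string of letters and not a bound site.

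On the 4 arrays, between 54.2% and 63.5% of non-control spots were well above background and 0 were saturated. Signals below are processed intensities scaled so that the 75th percentile of every array is 654 units, called scaled signals; they compare arrays for the same probe and not different genes. With 1 array per group there is no replicate and no test. The ± value beside a log2 difference is the error given by the scanner software, which covers the measurement of the spots and neither the animals nor the hybridisation. A difference is called higher or lower when it reaches 2-fold (1 on the log2 scale). Both probes of Nfe2l2 gave scaled signals from 5290 to 8809 on the Nrf2+/+ arrays and from 4.52 to 7.77, not well above background, on the Nrf2-/- arrays. Of the surfactant and other alveolar type 2 markers, 11 of 11 with a probe were measured. The Nrf2+/+ non-tumor lung array lay on slide 1 and the other 3 arrays on slide 2. The Nrf2+/+ tumor comparison and the genotype comparison of non-tumor lung therefore cross slides, and in those comparisons slide and group cannot be told apart.

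In Nrf2+/+ mice, 3 of the 10 genes were higher in tumor (Cdkn2a, Plk2 and Gdf15) and 1 was lower (Cdkn2c), with a median log2 difference of 0.17. Among all 19913 genes measured in that comparison 23.4% reached 2-fold, 8.08% higher and 15.3% lower. In Nrf2-/- mice, 0 of 10 reached 2-fold either way, against 14.6% of all genes (5.43% higher and 9.12% lower), with differences from -0.94 to 1.00 and a median of 0.11; Gdf15 lay just under the mark. Between genotypes in non-tumor lung, 1 of 10 (Cdkn2a) was higher in Nrf2-/- and 0 lower, against 7.65% of all genes (3.04% higher and 4.61% lower). Between genotypes in tumor, 0 were higher and 1 of 10 (Plk2) was lower in Nrf2-/-, against 7.96% of all genes (4.29% higher and 3.67% lower). The tumor difference itself differed by at least 2-fold between genotypes for Cdkn2a and Plk2, 2 of 10, against 10.8% of all genes. The median over all genes lay between -0.03 and 0.02 in the 4 comparisons. All of these comparisons share arrays with one another.

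**Figure D1:**
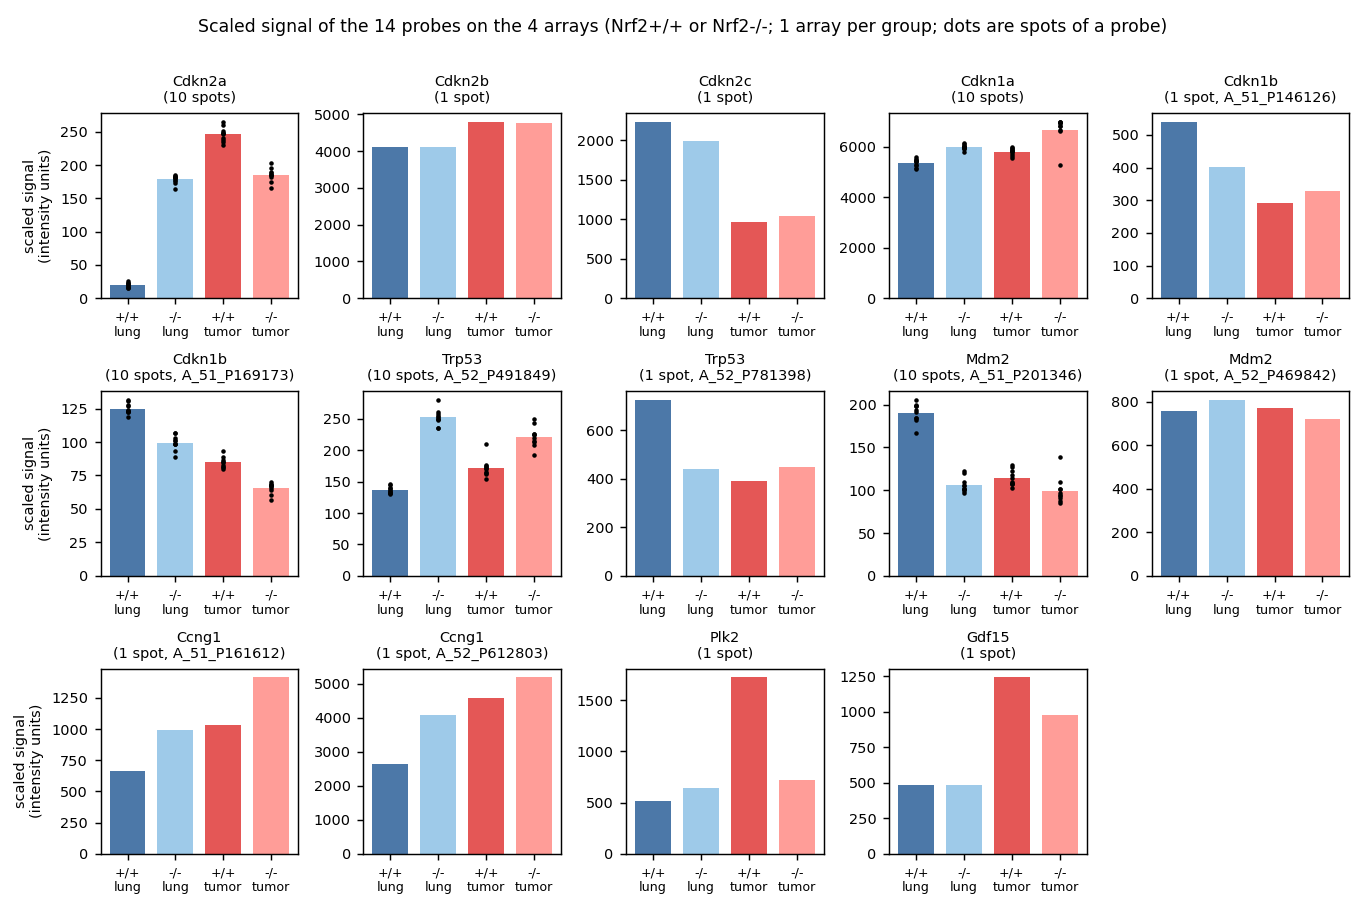
Scaled signal (intensity units, linear axes from 0) of each of the 14 probes on the 4 arrays, with the spots of a probe as dots; 1 array per group. The Cdkn2a probe reads 19.1 in Nrf2+/+ non-tumor lung and between 178 and 246 on the other 3 arrays, and Plk2 stands out in Nrf2+/+ tumor at 1723.

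Cdkn2a had the largest differences among the 10 genes. Its scaled signal was 19.1 in Nrf2+/+ non-tumor lung, 178 in Nrf2-/- non-tumor lung, 246 in Nrf2+/+ tumor and 185 in Nrf2-/- tumor. The gene was thus near background on 1 array and at like levels on the other 3. In Nrf2+/+ non-tumor lung 9 spots were used, 3 of them well above background, with signals from 14.6 to 25.7. The spots read from 164 to 185 in Nrf2-/- non-tumor lung, from 230 to 265 in Nrf2+/+ tumor and from 165 to 204 in Nrf2-/- tumor. Those of the first array did not overlap the others, and those of Nrf2+/+ tumor lay above those of both Nrf2-/- arrays. Spots are repeat readings of the same pool. The median log2 SD between spots was 0.07 to 0.08 per array over 158 probes well above background on all arrays, which leaves out Cdkn2a. For Cdkn2a the SD was 0.30 in Nrf2+/+ non-tumor lung and 0.05 to 0.08 on the other 3 arrays. The separation of spots, here and below, does not measure differences between mice or hybridisations, and small array offsets can produce it.

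Because the probe was not well above background in Nrf2+/+ non-tumor lung, folds against that array are uncertain and are given as measured. Nrf2+/+ tumor read 12.9-fold higher than Nrf2+/+ non-tumor lung, a larger difference than in 99.4% of genes. The log2 difference was 3.69 ± 0.37, with a 95% interval of the software error from 2.95 to 4.42. Nrf2-/- non-tumor lung read 9.33-fold higher than Nrf2+/+ non-tumor lung (3.22 ± 0.37, interval 2.49 to 3.96), above 99.6% of genes. Between the Nrf2-/- tissues the log2 difference was 0.05 ± 0.21, and Nrf2-/- tumor lay 0.41 ± 0.21 below Nrf2+/+ tumor on the log2 scale, with a 95% interval of the software error that includes 0 (-0.83 to 0.01). Both large differences are against the array that stands alone on its slide. With normexp background correction they became 2.00 and 1.62. The probe carries the accession of 1 Cdkn2a transcript, and the files do not tell whether it reads Ink4a, Arf or both. In pooled tissue, fewer cells with the transcript and less transcript per cell cannot be told apart, here and below.

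Cdkn2b, the neighbouring INK4 gene, did not follow Cdkn2a. Its scaled signal was 4111 in Nrf2+/+ non-tumor lung, 4108 in Nrf2-/- non-tumor lung, 4794 in Nrf2+/+ tumor and 4762 in Nrf2-/- tumor. The tumor differences were 0.22 ± 0.20 and 0.21 ± 0.20 in Nrf2+/+ and Nrf2-/- mice on the log2 scale, and the genotypes lay within 0.01 of each other in both tissues. The tumor differences were about the size of the software error, and their sign in Nrf2-/- mice turned with spike-in scaling of the arrays (-0.06).

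Cdkn2c, the INK4 inhibitor that is best known for limiting growth of endocrine and lymphoid cells, was lower in tumor. Its scaled signal was 2235 and 1994 in Nrf2+/+ and Nrf2-/- non-tumor lung and 965 and 1041 in the tumors. Both tumor arrays lay below both non-tumor arrays. The log2 difference was -1.21 ± 0.20 in Nrf2+/+ mice and -0.94 ± 0.20 in Nrf2-/- mice, the latter just under the 2-fold mark. Between genotypes it was -0.16 ± 0.20 in non-tumor lung and 0.11 ± 0.20 in tumor. The 3 genes with the most similar course over the 4 arrays, by the distance between centred log2 levels among 12291 candidates, were the growth hormone receptor gene Ghr (distance 0.05), Vgll3 (0.06) and Cavin2 (0.07), a caveolar coat gene. Endothelial markers, which include genes of the capillary bed, were lower in both tumors as well, with a median of -1.40 in Nrf2+/+ and -1.05 in Nrf2-/- mice. Of these 10 genes, 8 and 6 were at least 2-fold lower, against 15.3% and 9.12% of all genes. The summed scaled signal of the endothelial markers was 229584 and 236721 in non-tumor lung and 92891 and 121869 in tumor. Their part in the Cdkn2c difference was not tested.

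Cdkn1a, the p21 inhibitor and the classical p53 target, was bright and nearly level. It gave scaled signals of 5368 in Nrf2+/+ and 5994 in Nrf2-/- non-tumor lung, and of 5818 and 6691 in the tumors. The log2 differences were 0.12 and 0.16 for tumor in Nrf2+/+ and Nrf2-/- mice, and 0.16 and 0.20 for genotype in non-tumor lung and tumor, each ± 0.20. Its 10 spots spanned 5109 to 5603, 5790 to 6141, 5566 to 6014 and 5291 to 6996 on the 4 arrays in the order above, and apart from 1 low spot those of Nrf2-/- tumor (6622 and above) lay above the spots of the other 3 arrays. The sign of the tumor differences turned with the scaling, from -0.10 to 0.41 in Nrf2+/+ and from -0.11 to 0.30 in Nrf2-/- mice.

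Cdkn1b, the p27 inhibitor that holds cells in quiescence, was lower in Nrf2+/+ tumor than in Nrf2+/+ non-tumor lung by less than 2-fold on both probes. The brighter probe (A_51_P146126, 1 spot) gave scaled signals of 540.3 and 403 in Nrf2+/+ and Nrf2-/- non-tumor lung, and of 292 and 327 in the tumors. The other (A_51_P169173, 10 spots) gave 125, 99.5, 84.8 and 65.5 in the same order. The highest array was Nrf2+/+ non-tumor lung on both. The tumor difference was -0.89 ± 0.21 and -0.56 ± 0.24 in Nrf2+/+ mice, and -0.30 ± 0.21 and -0.60 ± 0.27 in Nrf2-/- mice, on the brighter and the other probe. Between genotypes in tumor the probes took opposite signs, 0.16 ± 0.21 and -0.37 ± 0.29; a gap of this size was seen in 6.36% of the 4087 genes with several probes well above background on all arrays.

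**Figure D2:**
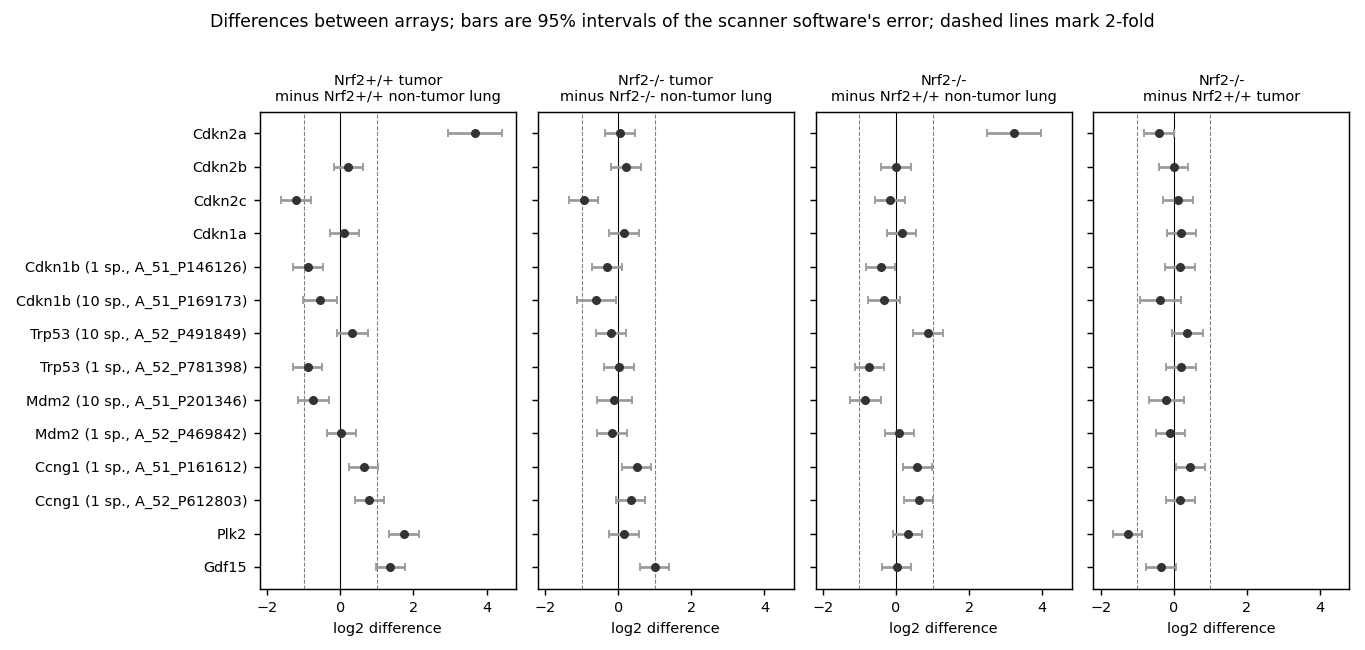
Log2 difference of each of the 14 probes in the 4 comparisons; bars are 95% intervals of the scanner software's error and dashed lines mark 2-fold. Cdkn2a lies past 3 in both comparisons against Nrf2+/+ non-tumor lung, and in the Nrf2-/- tumor comparison no probe passes 2-fold.

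Trp53, the p53 gene itself, was read by 2 probes that disagreed. The probe with 1 spot (A_52_P781398), the brighter, gave scaled signals of 725 in Nrf2+/+ non-tumor lung, 438 in Nrf2-/- non-tumor lung, 391 in Nrf2+/+ tumor and 447 in Nrf2-/- tumor. The probe with 10 spots (A_52_P491849) gave 137, 252, 172 and 221 in that order. On the first probe Nrf2+/+ non-tumor lung was the highest array and on the second the lowest.

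Between genotypes in non-tumor lung the Trp53 difference was therefore -0.73 ± 0.20 on the brighter probe and 0.88 ± 0.21 on the other. In the second case the 10 spots did not overlap, at 130 to 147 in Nrf2+/+ and 236 to 280 in Nrf2-/- (highest spot 280.5). The gap of 1.61 between the probes was matched or passed in 20 of the 4087 genes (0.489%). In Nrf2+/+ mice the tumor difference was -0.89 ± 0.21 and 0.33 ± 0.21, a gap of 1.22 seen in 1.42% of genes. In the comparisons within slide 2 the probes gave like values: 0.03 ± 0.21 and -0.19 ± 0.21 for tumor in Nrf2-/- mice, and 0.19 ± 0.21 and 0.37 ± 0.22 for genotype in tumor. No direction can be given for Trp53 in a comparison that includes Nrf2+/+ non-tumor lung; what sets its probes apart was not tested.

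Mdm2 showed the same kind of split on the same array. Its brighter probe (A_52_P469842, 1 spot) was level, with scaled signals of 758 and 809 in Nrf2+/+ and Nrf2-/- non-tumor lung, and of 772 and 722.5 in the tumors. The other (A_51_P201346, 10 spots) gave 190.1, 106, 115 and 99.1 in that order. Only Nrf2+/+ non-tumor lung stood above the rest on the second probe, and its spots (167 to 206) lay above those of every other array (highest spot 139). The genotype difference in non-tumor lung was 0.09 ± 0.20 and -0.84 ± 0.21, a gap of 0.93 seen in 3.40% of genes, and the tumor difference in Nrf2+/+ mice was 0.03 ± 0.20 and -0.73 ± 0.22. Within slide 2 the values of the probes lay within 0.11 of each other: -0.16 ± 0.20 and -0.10 ± 0.24 for tumor in Nrf2-/- mice, and -0.10 ± 0.20 and -0.21 ± 0.25 for genotype in tumor.

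**Figure D3:**
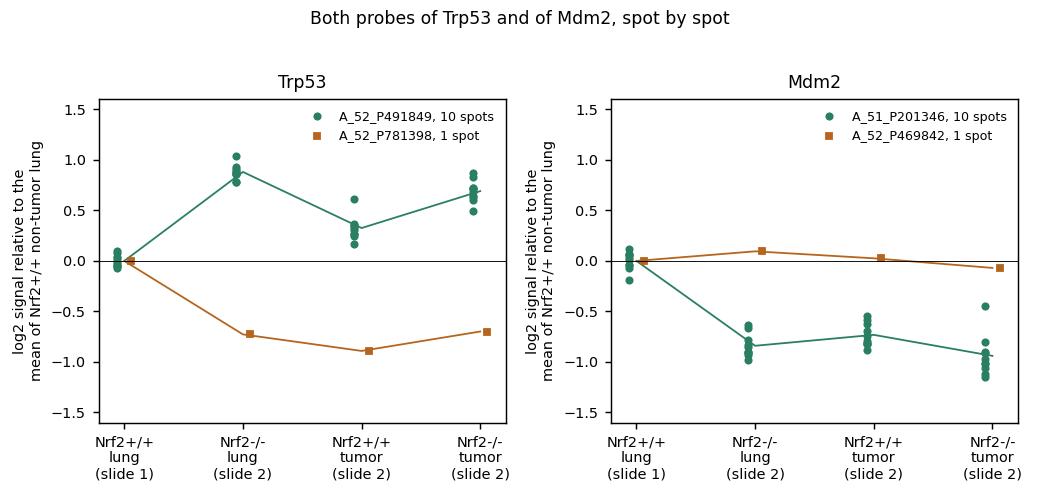
Log2 signal of every spot of both Trp53 probes and both Mdm2 probes, relative to each probe's mean in Nrf2+/+ non-tumor lung, the only array on slide 1. For Trp53 the 3 arrays of slide 2 lie above 0 on the 10-spot probe and below 0 on the 1-spot probe; for Mdm2 they lie below 0 on the 10-spot probe and near 0 on the other.

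Ccng1, which encodes cyclin G, a p53 target that acts on Mdm2 through a phosphatase, was read by 2 probes that differed by 0.04 to 0.28 over the 4 comparisons. Its brighter probe (A_52_P612803) gave scaled signals of 2649 and 4073 in Nrf2+/+ and Nrf2-/- non-tumor lung, and 4587 and 5183 in the tumors. The other (A_51_P161612) gave 662, 994, 1034 and 1415 in the same order. Both probes put the arrays in the same order, with Nrf2+/+ non-tumor lung lowest and Nrf2-/- tumor highest. The tumor difference in Nrf2+/+ mice was 0.79 ± 0.20 on the brighter probe and 0.64 ± 0.20 on the other, and in Nrf2-/- mice 0.35 ± 0.20 and 0.51 ± 0.20. Between genotypes it was 0.62 ± 0.20 and 0.59 ± 0.20 in non-tumor lung, and 0.18 ± 0.20 and 0.45 ± 0.20 in tumor. None of these reached 2-fold at the scaling used; the brighter probe reached 1.09 in the Nrf2+/+ tumor comparison with scaling on the array median.

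Plk2, a polo-like kinase induced by p53 and by growth signals, was high on a single array. Like Cdkn2b, Cdkn2c and Gdf15, Plk2 was read by 1 probe with 1 spot per array. Its scaled signal was 515 in Nrf2+/+ non-tumor lung, 641 in Nrf2-/- non-tumor lung, 1723 in Nrf2+/+ tumor and 717 in Nrf2-/- tumor. The tumor difference was 1.74 ± 0.20 in Nrf2+/+ mice and 0.16 ± 0.20 in Nrf2-/- mice, and the difference between those was -1.58 ± 0.29. The genotype comparison in tumor, within slide 2, gave -1.26 ± 0.20, and that in non-tumor lung 0.32 ± 0.20. The genes with the most similar course were 9530003J23Rik (distance 0.15), Tgm4 (0.18) and Iqgap3 (0.18). Iqgap3 is known as a scaffold of proliferating cells; its own log2 differences for tumor were 1.56 and 0.30 in Nrf2+/+ and Nrf2-/- mice.

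Gdf15, a secreted stress cytokine and p53 target, was higher in both tumors. Its scaled signal was 480.4 and 487 in Nrf2+/+ and Nrf2-/- non-tumor lung, and 1241 and 973 in the tumors. Both tumor arrays lay above both non-tumor arrays. The log2 difference was 1.37 ± 0.20 in Nrf2+/+ mice and 1.00 ± 0.20 in Nrf2-/- mice, where it fell just short of the mark. Between genotypes it was 0.02 ± 0.20 in non-tumor lung and -0.35 ± 0.20 in tumor. Its most similar genes were Car8 (distance 0.07), Sh3rf1 (0.08) and Fam187b (0.09).

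Other targets of p53, a list of 47 genes of which 44 were measured, moved in both directions. In Nrf2+/+ mice 7 were higher in tumor, 5 lower and 32 within 2-fold, against 8.08% of all genes higher and 15.3% lower. The median log2 difference of the list was 0.23. Of the 7, Eda2r was not well above background in Nrf2+/+ non-tumor lung and has a bound of 1.94-fold, under the mark. In Nrf2-/- mice 4 were higher and 2 lower, against 5.43% and 9.12% of all genes, with a median of 0.11. Psrc1, a microtubule regulator of mitosis, had scaled signals of 86.0 and 355 in Nrf2+/+ and Nrf2-/- non-tumor lung and 1465 and 1346 in the tumors. Its log2 tumor difference was 4.09 ± 0.21 in Nrf2+/+ and 1.92 ± 0.20 in Nrf2-/- mice, and the lower level in Nrf2+/+ than in Nrf2-/- non-tumor lung (difference 2.05 ± 0.21) was seen on all of its 3 probes (1.80 to 2.05). The pattern shared with Cdkn2a, low in Nrf2+/+ non-tumor lung, again involves the array on slide 1.

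Dram1, an autophagy gene, was higher in both tumors (1.57 and 1.23), and 2 genes were lower in both: Pltp, a phospholipid carrier (-1.53 and -1.04), and Spata18 (-1.34 in Nrf2+/+ mice, and down at least 2.54-fold in the Nrf2-/- tumor pool). Higher in both genotypes were thus 2 of 44, against 3.44% of all genes, and lower in both were 2, against 6.65%. The apoptosis gene Bax differed by 0.63 and 0.31, and Bbc3, another killer of the same family, by 0.01 and -0.21.

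Between genotypes in tumor, 1 of the 44 was higher and 2 were lower in Nrf2-/-, against 4.29% and 3.67% of all genes. Pmaip1, the apoptosis gene Noxa, was the higher one, at 665 in Nrf2+/+ and 1959 in Nrf2-/- tumor (log2 difference 1.56 ± 0.20), with 1849 and 2345 in non-tumor lung. Ak1, an adenylate kinase, was lower (5573 in Nrf2+/+ and 1631 in Nrf2-/- tumor, -1.77 ± 0.20). Gadd45a, a growth arrest gene of the DNA damage response, was at least 5.40-fold lower, with 178 in Nrf2+/+ tumor and a signal not well above background in Nrf2-/- tumor. Gadd45a was also the list's lowest gene in Nrf2-/- against Nrf2+/+ non-tumor lung (35.9 against 91.1, -1.34 ± 0.26). In that comparison 3 of 44 were higher and 2 lower, against 3.04% and 4.61% of all genes. Of the 3, 1 was again Eda2r, with a bound of 1.45-fold.

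**Figure D4:**
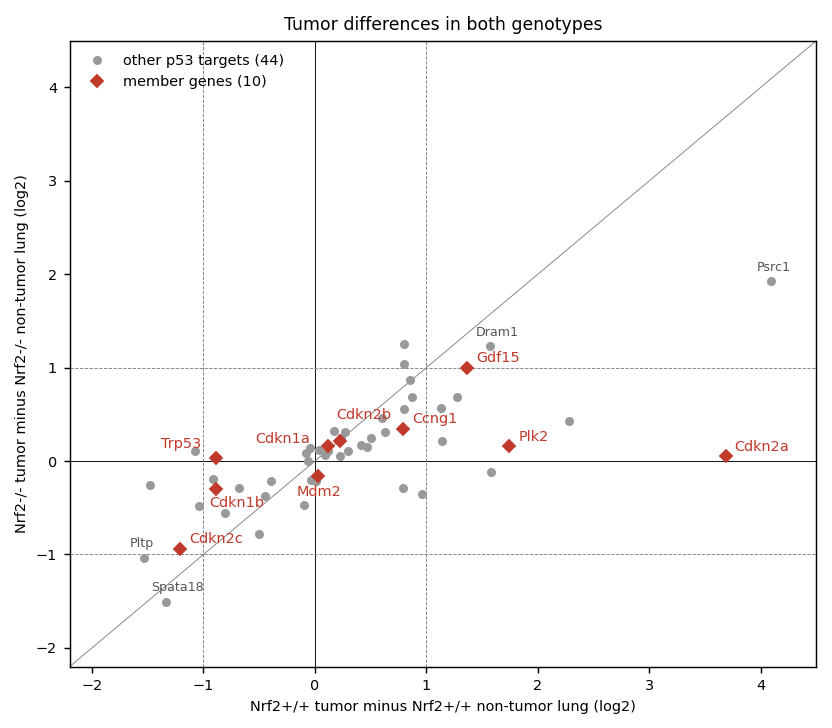
Log2 tumor difference in Nrf2+/+ mice (horizontal) against that in Nrf2-/- mice (vertical) for the 10 members (diamonds) and 44 other p53 targets (circles); dashed lines mark 2-fold and the diagonal marks equal differences. Cdkn2a and Plk2 lie far to the right of the diagonal, near 0 on the vertical axis, and Psrc1 is at 4.09 and 1.92.

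The regulators of p53, 26 measured of 29, were mostly within 2-fold on their brightest probes. In Nrf2+/+ mice 2 were higher in tumor and 1 lower, against 8.08% and 15.3% of all genes, and 23 of 26 were within 2-fold. In Nrf2-/- mice 26 of 26 were within 2-fold, while 14.6% of all genes were past it. The same held in both genotype comparisons, in which 7.65% (non-tumor lung) and 7.96% (tumor) of all genes were past 2-fold. Chek2, the checkpoint kinase, was higher in Nrf2+/+ tumor by 1.06 on the log2 scale, on a dim probe whose scaled signal was 42.9 against 89.4; its other probe was not well above background on any array. Trp73, a relative of p53, was lower there (-1.47) and differed by -0.83 in Nrf2-/- mice. Its dimmer probe, well above background on 2 of the 4 arrays, differed by -3.11 and -3.54. Ppp1r13l, an inhibitor of p53, was higher in Nrf2+/+ tumor (1.11) on its brighter probe and lower (-1.25) on the other, so no direction is given for it. Between genotypes in non-tumor lung its dimmer probe differed by -1.01. Between genotypes in tumor, the dimmer probes of Ppm1d and Pml differed by 1.01 and -1.23, and the brighter ones by 0.54 and -0.11. Atm, the kinase that responds to DNA breaks, had a probe that was not well above background in Nrf2-/- tumor and another that differed there by -0.18 from Nrf2-/- non-tumor lung.

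Of 5 other genes with a Cdkn name, not all of them kinase inhibitors, Cdkn1c, the p57 inhibitor, was lower in both tumors (-1.69 and -1.52). Its scaled signals were 1840 and 1511 in Nrf2+/+ and Nrf2-/- non-tumor lung and 569 and 527 in the tumors. Cdkn3, a phosphatase of mitotic cells, was higher in Nrf2+/+ tumor by 1.26 and differed by 0.54 in Nrf2-/- mice. The other 3 (Cdkn2d, Cdkn2aip and Cdkn2aipnl) lay within 2-fold in all 4 comparisons. Among cyclins, kinases, retinoblastoma and E2F genes, 22 of 28 were measured. Of these, 6 were higher and 0 lower in Nrf2+/+ tumor, against 8.08% and 15.3% of all genes. In Nrf2-/- tumor 1 was higher and 0 lower, against 5.43% and 9.12%. Cks1b, a subunit that helps to degrade Cdkn1b protein, was higher in both (2.29 and 1.26). Cdk1, the mitotic kinase, differed by 1.74 and 0.60, and was lower in Nrf2-/- than in Nrf2+/+ tumor by -1.03 on the log2 scale.

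Proliferation genes, 22 measured of 25, followed the same pattern. Cdk1 and Ccnb1 belong both to this list and to that of cyclins and kinases, so the lists are not independent. In Nrf2+/+ tumor 13 of 22 were higher and 0 lower, with a median of 1.10, against 8.08% and 15.3% of all genes. In Nrf2-/- tumor 0 of 22 reached 2-fold, with a median of 0.28, against 14.6% of all genes. Between the tumors 2 of 22 were lower in Nrf2-/- (Cdk1 and Ube2c), against 3.67% of all genes, with a median of -0.58. The summed scaled signal of the proliferation genes was 25595 and 26810 in Nrf2+/+ and Nrf2-/- non-tumor lung, and 38243 and 30158 in the tumors. It was thus highest on the array on which Plk2 was highest; its part in the Plk2 difference was not tested.

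Of known regulators of the Cdkn2a locus, polycomb and other chromatin or transcription factors, 24 of 26 were measured. Of 23 measured in the Nrf2+/+ tumor comparison, 1 was higher and 4 lower, against 8.08% and 15.3% of all genes. Of 24 in the Nrf2-/- tumor comparison 1 was higher and 1 lower, against 5.43% and 9.12%. Between genotypes in non-tumor lung 1 of 24 was higher and 1 lower, against 3.04% and 4.61%, with a median of -0.03. The lower one was Hmga2, a chromatin protein that opposes Cdkn2a expression, with scaled signals of 249 in Nrf2+/+ and 73.6 in Nrf2-/- non-tumor lung on its brighter probe (-1.76) and 31.6 and 31.1 on the other, so it rests on 1 probe. The higher one, the polycomb gene Cbx8, was near background, with a bound of 1.15-fold. These counts use the brightest probe of each gene. Between genotypes in non-tumor lung the dimmer probes of Dmtf1 and E2f1 differed by -1.09 and -1.03, and the brighter ones by -0.42 and 0.25. Tbx3, a repressor of the locus, was lower in both tumors (-1.84 and -1.20). Myc was higher in Nrf2+/+ tumor (1.17) and differed by 0.86 in Nrf2-/- mice.

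Markers of other cell types also differed between the arrays. In Nrf2-/- against Nrf2+/+ mice, 3.04% of all genes were higher and 4.61% lower in non-tumor lung, and 4.29% were higher in tumor. Between genotypes in non-tumor lung, mesothelial markers had a median of 1.19, with 5 of 8 higher in Nrf2-/- and 0 lower, and in tumor 5 of 7 were higher. Their summed scaled signal was 23314 in Nrf2+/+ and 35024 in Nrf2-/- non-tumor lung, and 19562 and 25648 in the tumors. Macrophage markers had a median of 0.62 in non-tumor lung, with 9 of 13 above 0 and, past the 2-fold mark, 2 higher and none lower in Nrf2-/-. The sums were 153703, 169912, 191536 and 234815 in Nrf2+/+ and Nrf2-/- non-tumor lung and in Nrf2+/+ and Nrf2-/- tumor. The part of these cells in the Cdkn2a difference was not tested.

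Alveolar type 2 markers were higher in both tumors (median 1.32, 8 of 11 higher, and 1.02, 6 of 11 higher), and type 1, ciliated and cardiac muscle markers were lower. Among all genes 8.08% were higher and 15.3% lower in Nrf2+/+ tumor, and 5.43% and 9.12% in Nrf2-/- tumor. Type 1 markers had medians of -1.21 and -0.67, with 6 and 3 of 9 lower. Ciliated markers had medians of -2.11 and -2.88, with 10 of 10 lower in both genotypes, and cardiac markers -2.75 and -2.41, with 9 of 10 lower in both. Club cell markers of the airway were mixed, with medians of -0.53 and -1.09. Of 7, 2 were lower and 1 higher in Nrf2+/+ tumor, and 4 lower and 1 higher in Nrf2-/- tumor. Of those 4, 3 stayed at least 2-fold lower when bounds were used for signals not well above background. The higher one in both was Bpifa1, at least 8.09-fold and at least 5.97-fold. The part of these shifts in the tumor differences of the members was not tested.

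**Figure D5:**
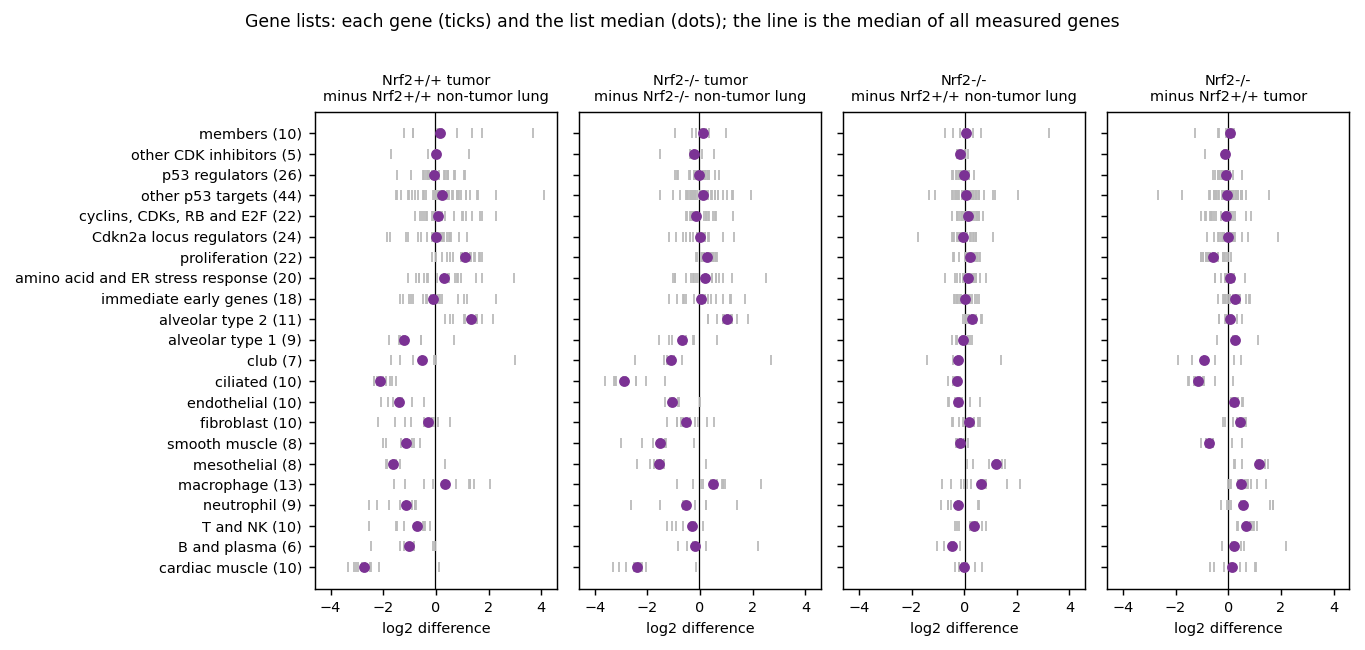
Log2 difference of every gene (ticks) of the gene lists that was well above background on any array, with the list median (genes above background on either array compared) as a dot, in the 4 comparisons; the vertical line is the median of all measured genes. The proliferation list has medians of 1.10 and 0.28 in the tumor comparisons of Nrf2+/+ and Nrf2-/- mice, and the mesothelial list 1.19 and 1.17 in the genotype comparisons of non-tumor lung and tumor.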

How the data were processed

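Per the labels, 500 ng of Cy3-labelled RNA from each pool was put on a whole-mouse-genome Agilent array. The deposited intensity of each spot is linear, background-subtracted and detrended by Feature Extraction 10.7.3.1, per the file headers. The submitters' value table equalled the processed signal within rounding, so it was linear and not centred.

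From these, log2 signals were computed and centred on the 75th percentile of the array's non-control spots. Spots flagged as non-uniform or as outliers were left out, the remaining spots of a probe were averaged, and a probe counted as well above background when at least 50% of its spots were. Genes were named by RefSeq accession (GRCm38.p6 table): 26690 probes had a symbol and 14484 none. The array was annotated on mm9, so no gene coordinates from it are given. A gene was represented by its brightest probe. Lower bounds use the lowest signal well above background on the dim array, or the gene's own signal there if that is higher. For Cdkn2a the own signal was higher, so its folds are measured values and not bounds. A gene entered a count if either array of the comparison read it well above background. The calculation was tested on simulated data.

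The members, gene lists and named genes (the largest in each list and comparison, those past 2-fold in both genotypes or tissues, and the 3 most similar genes of each member that is well above background on all 4 arrays and spans at least 2-fold, which leaves out Cdkn2a) were chosen with earlier results of these data known. Bax, Bbc3, Ak1, Chek2, Ube2c and Eda2r were named after their values were seen. Alternatives were scaling on the median or spike-in probes, quantile normalization, normexp background correction on the median spot signal (in place of the mean signal that was planned), a floor, the mean of probes, the value table, a 1.5-fold mark, genes above background on all 4 arrays and, chosen after seeing the data, the dimmer of 2 probes. Python 3.11.15, pandas 2.3.3, R 4.3.3 and limma 3.58.1 were used.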

Additional observations from a re-analysis of the deposited data

How the results depend on the processing

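With 1 array per group no array can be left out and no p-value exists; the number of arrays limits the precision. No paired analysis was possible because each group is 1 array and the numbers in the labels run across groups. In Nrf2+/+ mice Ccng1 joined the members higher in tumor with scaling on the array median (1.09) and at a 1.5-fold mark (0.79). There the 1 member lower in tumor became 0 with scaling on the array median, 3 with spike-in scaling and 3 at a 1.5-fold mark. In Nrf2-/- mice the 0 members higher in tumor became 1 with median scaling, quantile normalization, the submitters' value table or a 1.5-fold mark, and the 0 lower became 1 with spike-in scaling or a 1.5-fold mark. Between genotypes in non-tumor lung, the 1 member higher became 0 among genes above background on all 4 arrays, which leaves out Cdkn2a, and 2 at a 1.5-fold mark, and the 0 lower became 1 at that mark. Leaving the dimmer probe aside, 35 of 50 member values kept their sign under all of these settings; those that turned stayed between -0.37 and 0.41 throughout, except the genotype difference of Trp53 in non-tumor lung. With the mean of probes, Trp53 went from -0.89 to -0.28 for tumor in Nrf2+/+ mice and from -0.73 to 0.08 for genotype in non-tumor lung, and Mdm2 from 0.09 to -0.37 in the latter. Scaling on the median shifted the typical gene (median over all) by 0.29 in the Nrf2+/+ tumor comparison, 0.14 in the Nrf2-/- one and 0.14 between genotypes in non-tumor lung, and spike-in scaling by -0.22 and -0.27 in the tumor comparisons; normexp moved the first by 0.12. The share of calls that were higher in tumor was 34.5% in Nrf2+/+ mice, 55.1% with median scaling, 23.1% with spike-in scaling and 48.8% with normexp; in Nrf2-/- mice it was 37.3%, 48.1%, 21.8% and 58.0%. In non-tumor lung the share higher in Nrf2-/- was 39.7%, and 51.6% with median scaling.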

Other observations

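Genes of the amino acid and endoplasmic reticulum stress response, a second route to Gdf15, were also followed, all 20 being measured. In Nrf2+/+ mice 3 were higher in tumor and 1 lower (median 0.30), against 8.08% and 15.3% of all genes. In Nrf2-/- mice 2 were higher and 1 lower (median 0.19), against 5.43% and 9.12%. Slc7a11, the cystine transporter and a well-known Nrf2 target, was at least 3.21-fold higher in Nrf2+/+ tumor and at least 3.34-fold higher in Nrf2-/- tumor. Psat1, a serine synthesis enzyme, was higher in both (1.73 and 1.19). Between genotypes 0 of these genes reached 2-fold in either tissue, against 7.65% of all genes in non-tumor lung and 7.96% in tumor.

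Of 18 measured immediate early genes, 3 were higher and 3 lower in Nrf2+/+ tumor, against 8.08% and 15.3% of all genes. In Nrf2-/- tumor 3 were higher and 1 lower, against 5.43% and 9.12%. Egr1 (2.29 and 1.72) and Junb (1.08 and 1.15) were higher in both, and Dusp1, a phosphatase of the same response, was lower in both (-1.38 and -1.19).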
